A study of Mus musculus with 8 samples.

Results

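The genes described here are the mouse MHC class II chains H2-Aa, H2-Ab1 and H2-Eb1, the peptide-exchange chains H2-DMa, H2-DMb1, H2-DMb2, H2-Oa and H2-Ob, the invariant chain gene Cd74 and the transactivator gene Ciita. They were chosen by name, and all 10 were found among the 21991 genes for which the tables give exons. RNA was sequenced from a pair of fractions of bone marrow of C57BL/6 mice aged 8 to 10 weeks, with no treatment named. Both fractions were sorted as CD150+, Sca1+, c-Kit+ and lineage-negative cells. The fraction called HSC, for hematopoietic stem cells, was CD34-, and the fraction called HPC, for hematopoietic progenitor cells, was CD34+. Each had 4 libraries. The sort text gives 5000 cells and names HSC only. The labels do not say whether each library had its own mice, and the tests therefore reflect only how far these libraries scatter, which may be technical.

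The libraries held 16291733 to 20564901 exon reads, and Cd34 itself went with the gate, with 120 CPM (reads scaled to library size by TMM) in HSC against 1276 CPM in HPC. Kit had no call (924 ± 185 CPM in HSC against 746 ± 66.4 in HPC, SD, n = 4 each), although it passed with DESeq2 and with upper quartile scaling. Slamf1, the gene of CD150, was at 37.6 CPM in HSC but 3.14 CPM in HPC, although both gates required CD150. The other stem and progenitor markers listed also differed. Procr (93.0 CPM in HSC against 19.2 in HPC) and Ly6a, a Sca1 gene (131 against 72.1 CPM), were higher in HSC. Flt3 (20.9 against 744 CPM) and Cd48 (19.7 against 247 CPM) were lower, so the fractions differ in more than Cd34. A count of 0 allows a level of up to 3 reads, which is 0.149 to 0.179 CPM depending on the library. That limit covers counting error only, as PCR copies count as reads.

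MHC class II molecules are pairs of an alpha and a beta chain that show peptides on the cell surface to CD4 T cells. H2-Aa and H2-Ab1 encode the pair called I-A, and H2-Eb1 encodes the beta chain of I-E, whose alpha chain gene is defective in C57BL/6 mice. The invariant chain, from Cd74, fills the groove of new class II molecules and leads them to endosomes. There H2-DM removes its last fragment and loads peptides, and H2-DO binds to H2-DM and holds it back. CIITA binds no DNA itself but acts as the master switch of these genes, through factors (RFX, CREB and NF-Y) held on the X and Y boxes of their promoters. Class II is best known from dendritic cells, B cells and macrophages, and some blood stem and progenitor cells carry it too.

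The X and Y boxes are shown because they are the common control element of chains that went opposite ways in these libraries. RefSeq promoter windows of build GRCm38.p6, from 250 bases before to 50 after the start site, were on hand for 7 of the 10 genes (H2-DMa has several starts, giving 8 windows in all). A search on both strands for AAC, then 23 to 27 bases of any kind, then TGATTGG found a match in 6 windows, those of 6 genes. Both H2-DMa windows lacked it, and H2-Ab1, Cd74 and Ciita were not searched. The pattern was chosen after these windows had been read. Of 32851 windows of the same length in the table, 176 (0.536%) hold it, and 7.82% hold TGATTGG. Capitals mark AAC, in the X box, and TGATTGG, which contains the Y box (an inverted CCAAT). Each stretch is read 5′ to 3′ on the gene's strand.
H2-Aa: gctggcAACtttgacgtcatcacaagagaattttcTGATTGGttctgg
H2-Eb1: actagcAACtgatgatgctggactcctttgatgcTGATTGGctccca
H2-DMb1: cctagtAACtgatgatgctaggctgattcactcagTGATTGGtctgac
H2-DMb2: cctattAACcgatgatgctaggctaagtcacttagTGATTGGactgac
H2-Oa: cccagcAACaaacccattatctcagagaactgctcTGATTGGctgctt
H2-Ob: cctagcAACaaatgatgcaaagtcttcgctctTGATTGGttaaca
The stretch of H2-Aa lies at chr17:34287861-34287908 on the minus strand. The others are on the plus strand, with H2-Eb1 at chr17:34305772-34305818, H2-DMb1 at chr17:34153093-34153140 and H2-DMb2 at chr17:34145122-34145169. H2-Oa is at chr17:34092299-34092346 and H2-Ob at chr17:34238814-34238858. The last base of TGATTGG lay 38 to 85 bases before the start site of the window, nearest in H2-Oa and farthest in H2-DMb2. The gap between the capitals was 26 bases in 4 genes, 25 in H2-Eb1 and 23 in H2-Ob. A match is a description of the sequence and does not show that a factor was bound.

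The tables list each of the 8 H2 genes on 4 rows, for chromosome 17 and 3 alternate scaffolds, and this decides how their reads can be counted. Chromosome 17 took 52.0% of their exon reads and 1 scaffold took 47.9%, while the other scaffolds took 0.0409% and 0.0496%. Rows were therefore summed per gene. Uniquely placed exon reads cannot be used for these genes: H2-Aa, H2-Ab1, H2-Eb1, H2-DMb1, H2-DMb2 and H2-Oa had 0 of them in all 8 libraries. H2-Ob had 6 of 559 exon reads in HSC and 52 of 10170 in HPC. All reads of Cd74, on 1 row, were uniquely placed.

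The share of exon reads that span a junction split the libraries across both fractions. It was 54.8% to 56.8% in HSC replicates 3 and 4 and HPC replicates 1 and 2, and 48.6% to 52.2% in the other libraries. The same split held for 8 of the 10 members, as for H2-Aa, with 71.7% to 77.0% against 55.7% to 59.9%, and not for H2-DMb2 or Ciita. The split was drawn from the exon reads of all genes. The share of all genes that follow it is not given here, so nothing particular to the members is read from this count. With this split as a covariate, chosen after seeing the data, the fit called 8 members in the same directions. Within its sides the log2 change of H2-Aa was 1.76 and 1.64, that of H2-Ob -4.09 and -4.32, and that of Cd74 1.91 and 1.90. Ciita differed more, at 1.24 in libraries of the higher share and 2.07 in the others, which was not tested.

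The 10 genes went both ways between the fractions. By edgeR's quasi-likelihood test, 4 members rose in HSC (H2-Aa, H2-Eb1, Cd74 and Ciita) and 4 fell (H2-DMa, H2-DMb2, H2-Oa and H2-Ob). H2-Ab1 and H2-DMb1 did not pass. These 8 of 10 members stand beside 37.1% of the 12751 genes tested that were called at an adjusted p under 0.05 (19.6% higher and 17.6% lower in HSC). For the same 8 members no HSC library overlapped with any HPC library, which held for 36.7% of all genes tested. The median log2 change of the members was 0.19, beside 0.00 over all genes tested. In these bulk samples, fewer cells that make a transcript and less RNA per cell cannot be told apart.

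**Figure D1:**
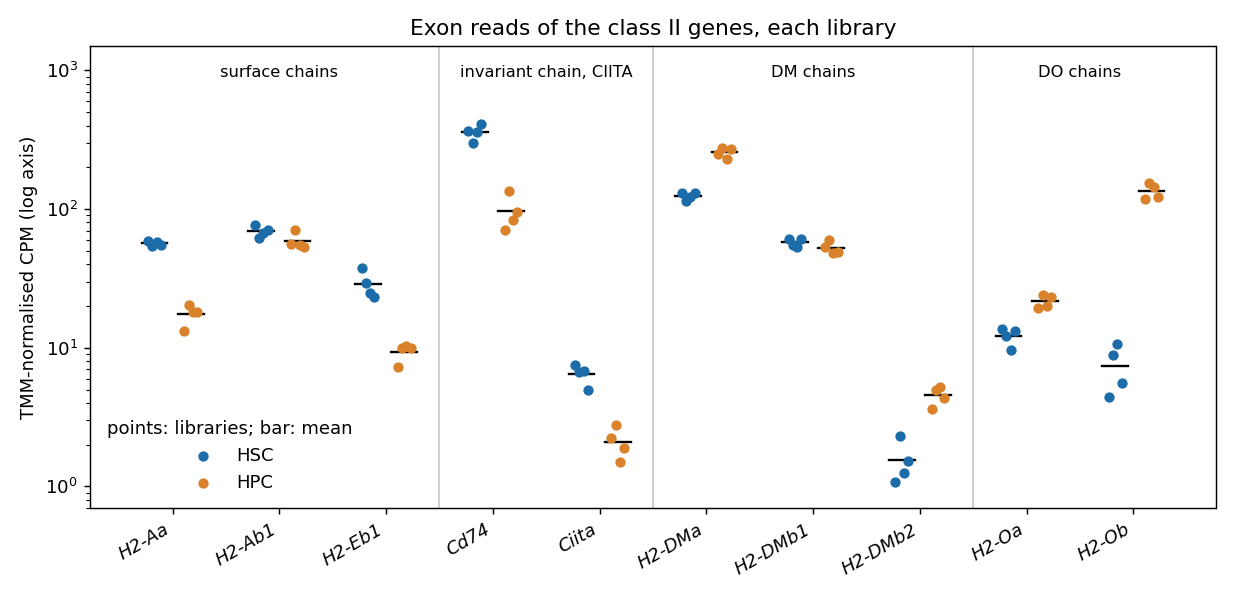
TMM-normalised CPM of each of the 10 genes (log axis) in each of the 4 HSC libraries (blue) and 4 HPC libraries (orange), with a bar at the group mean. Groups overlap for H2-Ab1 and H2-DMb1 and are apart for the other 8. Levels of different genes are not scaled to length here.

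**Figure D2:**
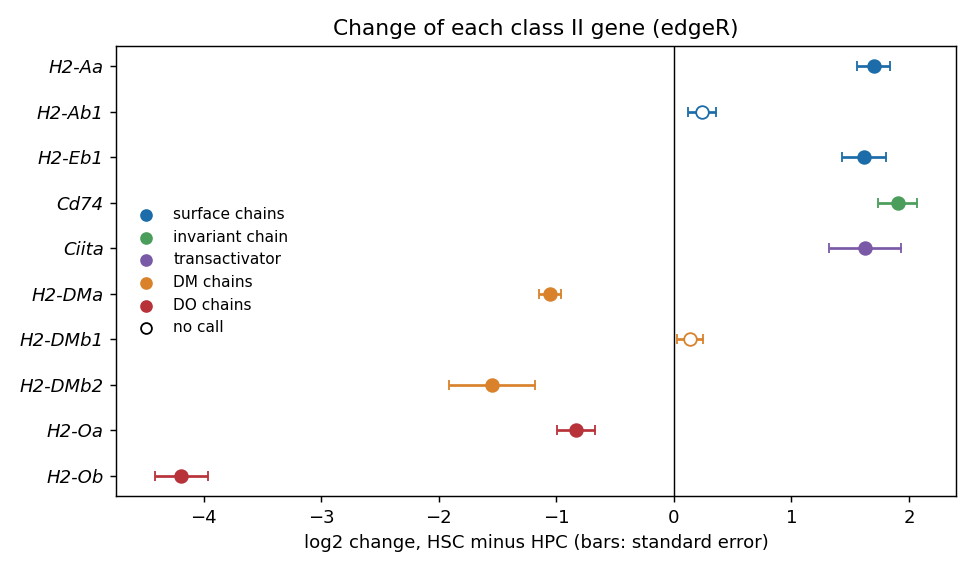
Log2 change, HSC minus HPC, of each gene with its standard error, coloured by role, open where edgeR gave no call. Values run from -4.19 for H2-Ob to 1.90 for Cd74.

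Among the surface chains, H2-Aa and H2-Eb1 rose by about the same factor, and H2-Ab1 did not pass the test. H2-Aa (NCBI gene 14960, chromosome 17, 34282751 to 34287771, minus strand, mm10) was at 58.8, 54.1, 58.2 and 54.9 CPM in HSC replicates 1 to 4. In HPC it was at 13.3, 20.2, 18.1 and 18.1 CPM. Every HSC library thus exceeded every HPC library, by 3.25-fold between means (log2 change 1.70 ± 0.14 SE, edgeR adjusted p = 2.97e-07). H2-Eb1 (gene 14969, chromosome 17, 34305867 to 34316674) was at 37.6, 29.3, 24.8 and 23.05 CPM in HSC and 7.29, 9.89, 10.2 and 9.94 CPM in HPC. Its groups did not overlap either, and the log2 change was 1.62 ± 0.19 (edgeR adjusted p = 8.39e-06).

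H2-Ab1 (gene 14961, chromosome 17, 34263227 to 34269418), the beta chain that pairs with the product of H2-Aa, was at 77.0, 61.9, 67.4 and 71.0 CPM in HSC. In HPC it was at 55.8, 70.5, 54.8 and 53.1 CPM. HPC replicate 2 lay within the HSC range and the other HPC libraries below it. The log2 change was 0.24 ± 0.12 (edgeR adjusted p = 0.129), and without HPC replicate 2 it was 0.34, with an adjusted p of 0.0367. It also passed with upper quartile scaling (0.32, adjusted p = 0.0479).

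Cd74 was the most abundant member in HSC and had the largest rise there. Cd74 (gene 16149, chromosome 18, 60803849 to 60812652) was at 365, 302, 361 and 411 CPM in HSC and 71.1, 135, 83.8 and 94.7 CPM in HPC. HPC replicate 2 was again the highest HPC library, but stayed below all HSC libraries. The log2 change was 1.90 ± 0.17 (3.74-fold, edgeR adjusted p = 6.04e-07).

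Ciita (gene 12265, chromosome 16, 10480014 to 10528606) was a rare transcript that was 3.10-fold higher in HSC. Its levels were 7.57, 6.64, 6.84 and 4.96 CPM in HSC and 2.22, 2.78, 1.505 and 1.88 CPM in HPC. The groups were apart, with a log2 change of 1.63 ± 0.31 (edgeR adjusted p = 0.000696). These values rest on 94 to 136 exon reads per HSC library and 27 to 56 per HPC library. Only 34.1% of them in HSC and 37.7% in HPC were uniquely placed, and on uniquely placed reads alone the log2 change was 1.48 ± 0.45 (adjusted p = 0.0185). Dexi lies across part of Ciita on the other strand, and the strand setting of the counting is not known here. Reads that span Ciita's own exon junctions numbered 44, 39, 41 and 25 in HSC and 10, 16, 6 and 9 in HPC, so these groups did not overlap either. Intron reads of Ciita did overlap, at 19 to 38 per library in HSC and 10 to 42 in HPC.

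The DM chains did not move as a set. H2-DMa, the alpha chain, fell in HSC, and H2-DMb1, the main beta chain, did not pass the test. H2-DMa (gene 14998, chromosome 17, 34122719 to 34139101) was at 130, 114, 122 and 130 CPM in HSC and 251, 277, 230 and 272 CPM in HPC. The groups were far apart, and HPC exceeded HSC 2.08-fold (log2 change -1.05 ± 0.09, edgeR adjusted p = 6.03e-07). H2-DMb1 (gene 14999, chromosome 17, 34153191 to 34160229) was at 60.6, 55.4, 53.1 and 61.3 CPM in HSC and 53.2, 59.4, 47.9 and 48.9 CPM in HPC. Its groups overlapped, with a log2 change of 0.14 ± 0.11 (edgeR adjusted p = 0.372).

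H2-DMb2, the lesser beta chain gene next to H2-DMb1, fell in HSC at a low level. H2-DMb2 (gene 15000, chromosome 17, 34145416 to 34151095) was at 1.07, 2.30, 1.26 and 1.53 CPM in HSC and 3.59, 4.97, 5.24 and 4.31 CPM in HPC. Its groups did not overlap (log2 change -1.55 ± 0.37, edgeR adjusted p = 0.00377). The HSC values rest on 18 to 44 exon reads per library. H2-DMb1 and H2-DMb2 are close copies, and reads could have been placed on either. The level of H2-DMb2, at 0.0289 to 0.0679 of the TPM of H2-DMb1 in HSC and 0.110 to 0.179 in HPC, is therefore uncertain.

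Of the DO chains, H2-Ob had by far the largest change of the 10 genes. H2-Ob (gene 15002, chromosome 17, 34238895 to 34254417), the DO beta chain, was at 4.41, 8.89, 10.6 and 5.54 CPM in HSC. In HPC it was at 119, 155, 143 and 123 CPM, 18.4-fold higher between means. The lowest HPC library stood far above the highest HSC library (log2 change -4.19 ± 0.23, edgeR adjusted p = 4.88e-09). Its junction-spanning reads numbered 14 to 83 per library in HSC and 633 to 1125 in HPC, and its intron reads 17 to 39 and 365 to 529, so both other kinds of read were apart in the same direction.

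H2-Oa (gene 15001, chromosome 17, 34092379 to 34095234), the DO alpha chain, fell far less. It was at 13.7, 12.1, 9.61 and 13.1 CPM in HSC and 19.2, 24.1, 20.1 and 23.04 CPM in HPC. The groups were apart, and the log2 change was -0.83 ± 0.16 (edgeR adjusted p = 0.00097).

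The summed ratio of surface chains to chaperones was higher in every HSC library than in every HPC library, though not every chain moved. H2-Ab1, the most abundant surface chain, and H2-DMb1 had no call. Summed over H2-Aa, H2-Ab1 and H2-Eb1, surface chains were at 145 to 173 CPM in HSC and 76.4 to 101 CPM in HPC. Summed DM chains were at 171 to 192 CPM in HSC and 283 to 342 CPM in HPC. H2-DMa made up most of that sum, with means of 124 of 183 CPM in HSC and 257 of 314 CPM in HPC. Summed DO chains were at 18.1 to 20.96 CPM in HSC and 138 to 179 CPM in HPC. The ratio of surface chains to DM and DO chains was 0.825, 0.756, 0.766 and 0.706 in HSC replicates 1 to 4, and 0.171, 0.193, 0.186 and 0.172 in HPC. Between fractions the log2 ratio differed by 2.08. The DO term carried a part of this: with H2-Ob left out, a choice made after seeing the data, the difference was 1.64. These ratios are of CPM, which are not scaled to exon length. On TPM, which are, surface chains over DM and DO chains stood at 1.14 to 1.33 in HSC and 0.329 to 0.369 in HPC. Which set was the larger in HSC thus depended on the scale, and the groups were apart on both. The TPM ratio also depends on the gene model of H2-DMa. Its mean TPM in HSC was 85.4 as summed over rows and 129 from its scaffold row doubled. The ratio was not computed with the scaffold model, so TPM do not settle which set was larger. No p is given for these ratios because the members were chosen with results known.

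Partner chains that form 1 molecule also differed in balance, here on the scale of the deposited TPM (transcript abundance corrected for exon length). H2-Aa over H2-Ab1 was 0.853 to 0.975 in HSC, close to equal, and 0.265 to 0.379 in HPC. H2-Oa over H2-Ob was 2.62 to 9.05 in HSC and 0.403 to 0.539 in HPC, so the more abundant DO chain was the alpha chain in HSC and the beta chain in HPC. H2-DMa over H2-DMb1 was 0.920 to 1.01 in HSC and 2.16 to 2.596 in HPC. The absolute DM ratio depends on the gene model: chromosome 17 lists 6798 exon bases for H2-DMa and the alternate scaffold 1658. On the scaffold rows alone it was 1.32 to 1.46 in HSC and 3.30 to 4.12 in HPC. Cd74 over the surface chains was 1.78 to 2.33 in HSC and 0.791 to 1.14 in HPC. All of these ranges were apart between fractions.

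**Figure D3:**
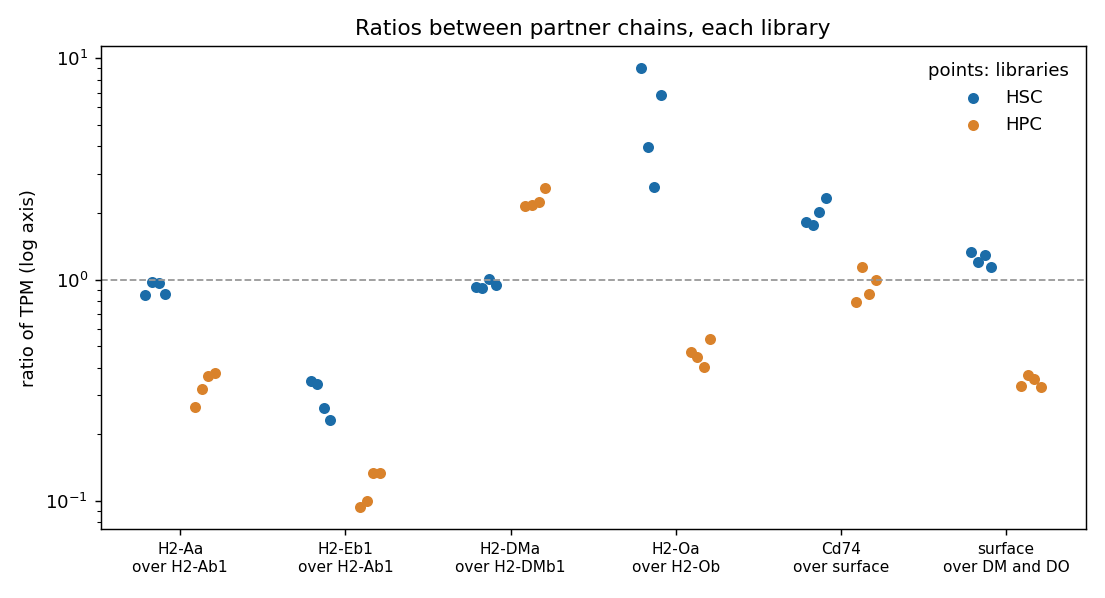
Ratios of summed TPM between partner chains (log axis), each point a library, HSC in blue and HPC in orange, with a dashed line at equal levels. H2-Aa over H2-Ab1 sits at 0.853 to 0.975 in HSC and 0.265 to 0.379 in HPC, and no ratio overlaps between the fractions.

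Ordered by TPM, Cd74 led in HSC at 510 ± 49.1 (SD, n = 4), followed by H2-Ab1 (117 ± 9.66), H2-Aa (107 ± 10.0), H2-DMb1 (90.1 ± 2.14), H2-DMa (85.4 ± 3.81) and H2-Eb1 (34.7 ± 7.90). H2-Oa (23.2 ± 2.42), H2-Ob (4.97 ± 2.25), H2-DMb2 (3.96 ± 1.47) and Ciita (1.76 ± 0.368) came last. Ranges of neighbours overlapped for H2-Ab1 and H2-Aa, for H2-DMb1 and H2-DMa, for H2-Eb1 and H2-Oa, and for H2-Ob and H2-DMb2. In HPC, H2-DMa led at 180 ± 12.6 TPM, before Cd74 (131 ± 38.6), H2-Ab1 (95.1 ± 15.5), H2-Ob (86.6 ± 13.9) and H2-DMb1 (78.9 ± 9.98). Ranges overlapped between each gene and the next within these 5, and H2-DMb1 did not overlap with H2-Oa, the next below it. H2-Oa (39.7 ± 3.81) and H2-Aa (31.4 ± 5.46) followed, also overlapping, then H2-DMb2 (11.2 ± 2.10) and H2-Eb1 (10.8 ± 1.62), overlapping as well, and Ciita (0.54 ± 0.148). The place of H2-DMa depends on its gene model. The TPM of its scaffold row, doubled to stand for both rows, was 129 ± 4.87 in HSC, where it would rank above H2-Ab1 with overlapping ranges. In HPC it was 281 ± 19.8, which no longer overlapped with Cd74.

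The genes called lower and those called higher lay on separate sides along chromosome 17. From H2-Oa to H2-Eb1, a stretch of 224.3 kb chosen after the values were seen, the tables list 13 genes with exons, and all were tested. The dividing point, after H2-Ob, was also placed with the values in view, so the separation is a description only. Of the 10 from H2-Oa to H2-Ob, 9 were lower in HSC and 1, H2-DMb1, had no call, beside 17.6% lower and 19.6% higher of all genes tested. Those 9 include the 4 members already called lower. Of the 3 beyond H2-Ob, none was lower, 2 were higher (H2-Aa and H2-Eb1) and H2-Ab1 had no call. The genes between H2-DMb1 and H2-Ob belong to class I presentation. They were Psmb9 and Psmb8, subunits of the immunoproteasome (log2 changes -0.49 and -0.64), and Tap1 and Tap2, which together form the peptide transporter (-0.56 and -0.92). H2-Ob, at -4.19, and H2-Aa, at 1.70, have only H2-Ab1 between them.

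**Figure D4:**
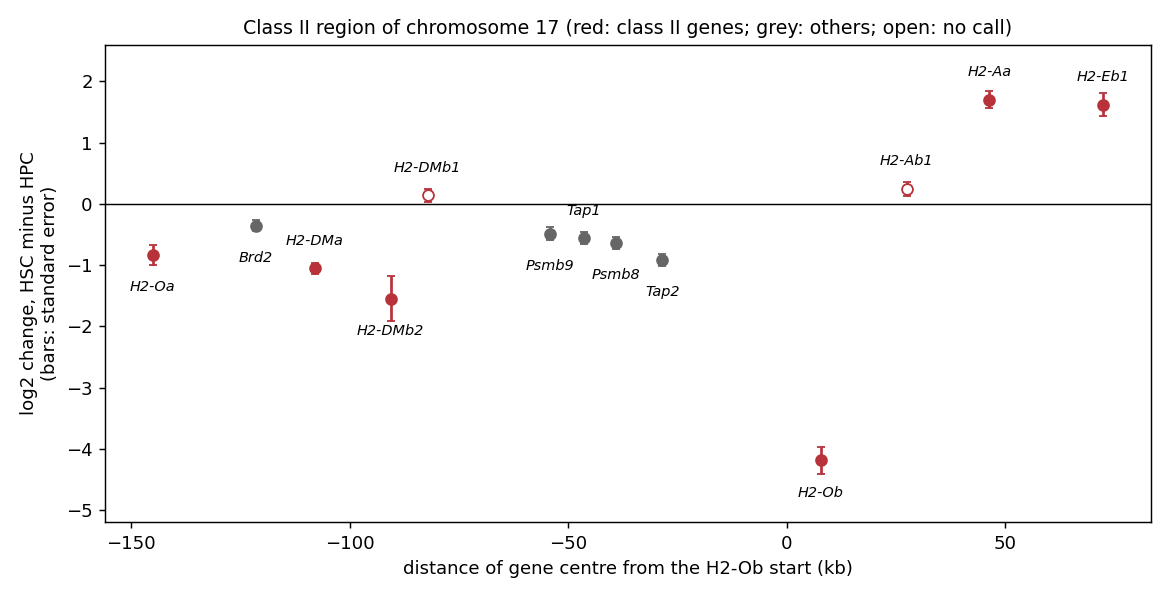
Log2 change, HSC minus HPC, with standard error, against the distance of each gene's centre from the start of H2-Ob in kilobases, class II genes in red, others in grey, open where there was no call. Genes up to H2-Ob are at or below 0.14, and H2-Ab1, H2-Aa and H2-Eb1 are at 0.24, 1.70 and 1.62.

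A wider list of 14 region neighbours, chosen by general knowledge of the locus, had 13 tested genes. Of these, 6 were lower and 7 had no call, beside 17.6% lower and 19.6% higher of all genes tested. None was higher by edgeR, at an unadjusted p under 0.05 or by DESeq2 (0 in each), though Tapbp passed as higher with upper quartile scaling. The list stood at a median log2 change of -0.05. The 6 lower genes were Psmb8, Psmb9, Tap1, Tap2, Brd2 and Rxrb (-0.56 ± 0.09). All but Rxrb lie in the stretch described above and were counted there. Outside that stretch, Rxrb was the only gene of the list called lower. H2-K1, a class I heavy chain gene, had no call (1729 ± 108 CPM in HSC, 1545 ± 148 in HPC). The other class II genes H2-Eb2 and H2-Ea-ps, the defective I-E alpha gene, were below the count filter, with 63 and 0 exon reads over all 8 libraries.

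The factors that act on class II promoters went both ways and by little. Of 11, edgeR called 2 higher and 3 lower in HSC and left 6 uncalled (median -0.01, beside 0.00 over all genes tested). Beside these counts and those of the lists below, 19.6% of all genes tested were higher and 17.6% lower. Zxdc also passed as higher with upper quartile scaling. Higher were Rfxap (52.3 ± 11.4 against 33.3 ± 7.84 CPM, log2 change 0.65) and Rfxank (47.0 ± 2.52 against 35.8 ± 2.88 CPM), which are subunits of RFX. Rfx5, its DNA-binding subunit, had no call at 53.5 ± 4.59 and 50.9 ± 3.77 CPM. Lower were Nfya (-0.67) and Nfyb (-0.41), subunits of NF-Y, and Creb1 (-0.50).

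Of 12 genes that induce or repress Ciita, 5 rose in HSC, 5 fell and 2 did not pass (median 0.28). Genes of the interferon gamma pathway, a main inducer of Ciita, were on both sides. Jak2 (77.1 ± 10.4 against 48.3 ± 11.1 CPM, log2 change 0.67), Jak1 and the receptor chain Ifngr1 were higher. The other receptor chain, Ifngr2 (-0.42), and Irf1 (-0.35) were lower, but Irf1 did not pass with upper quartile scaling. The myeloid factors Spi1, at 73.9 ± 8.51 against 166 ± 14.0 CPM, and Irf8, at 20.2 ± 9.5 against 108 ± 25.6 CPM, were lower in HSC, opposite to Ciita. Socs1, which inhibits interferon signalling, was higher (0.59 ± 0.18).

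The endosomal processing list of 10 genes had 4 that rose in HSC, 2 that fell and 4 that did not pass (median 0.09). Cathepsins that trim the invariant chain were divided. Ctsl, which does so in thymic epithelium, stood at 57.4 ± 5.599 CPM in HSC against 19.1 ± 3.49 in HPC (log2 change 1.59 ± 0.15, edgeR adjusted p = 1.03e-06). Ctss, which does so in B cells and dendritic cells, was at 20.3 ± 2.97 and 49.3 ± 3.79 CPM (-1.28 ± 0.13, edgeR adjusted p = 3.49e-06). Lgmn, an asparagine-specific protease, was lower (-1.996). March8, a ubiquitin ligase that can remove class II from the surface, was higher (0.98).

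Besides guiding class II, the CD74 protein is a receptor for the cytokine MIF. Of 5 genes of that system, 4 were lower in HSC, opposite to Cd74 itself, beside 17.6% of all genes tested. The median of the 5 was -0.71. None was higher (0 by edgeR, at an unadjusted p under 0.05 and by DESeq2). They were Cd44, its signalling partner (114 ± 10.6 against 207 ± 33.8 CPM), the chemokine receptors Cxcr4 (32.6 ± 3.78 against 53.3 ± 9.18 CPM) and Cxcr2 (-1.499), and Mif (-0.43, edgeR adjusted p = 0.0441), which did not pass with upper quartile scaling. A list of 8 genes, called costimulators here, holds ligands and receptors that adjust the T cell response, some of which inhibit it. Of these 5 were tested. Higher in HSC were Cd274 (0.78), which encodes the inhibitory ligand PD-L1, and Tnfsf4 (2.29), which encodes the activating ligand OX40L. Icosl, another activating ligand, was lower (-1.70). Cd86, which gives the second signal to T cells through CD28, had no call at 12.1 ± 0.559 and 12.01 ± 1.79 CPM, nor did Pdcd1lg2, which encodes the inhibitory ligand PD-L2. Cd80, which also binds CD28, and Cd40 were below the count filter, with 36 and 33 exon reads over all libraries.

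**Figure D5:**
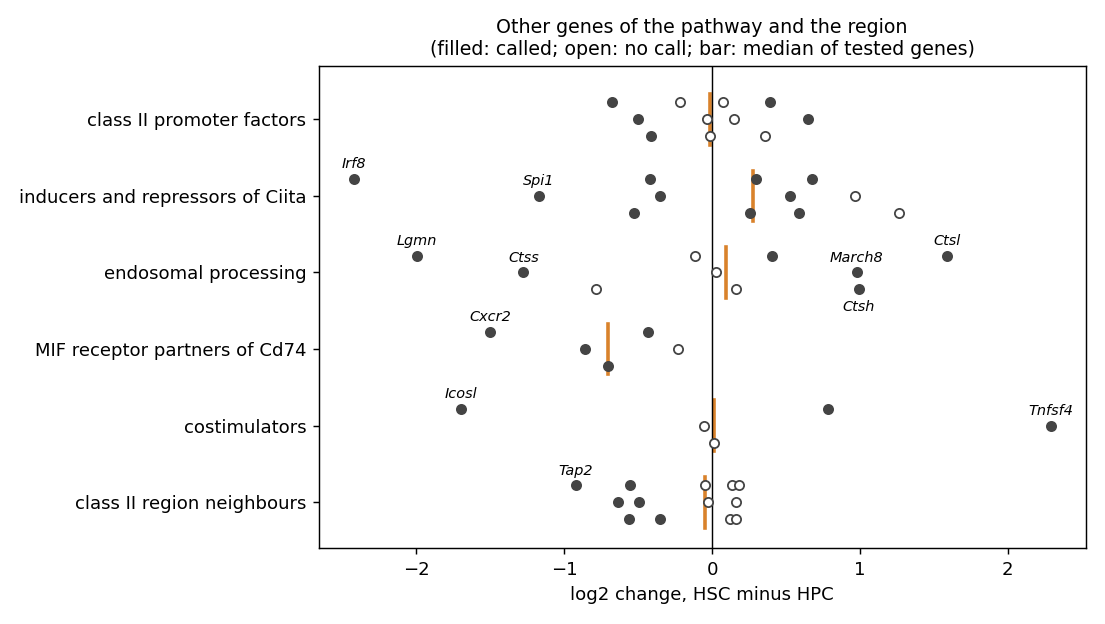
Log2 change, HSC minus HPC, of each tested gene of 6 lists, filled where called and open where not, with an orange bar at the list median. The list medians lie between -0.71 and 0.28, and genes beyond 0.9 in size that were called are named.

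Markers of mature cells that carry class II did not all move with it, and the most abundant of them, Cd79b, was near the HSC level of H2-Aa in CPM. Of 9 dendritic cell markers 8 were tested (2 rose in HSC, 3 fell, 3 did not pass), and their summed level was 31.4 to 45.4 CPM in HSC and 30.9 to 36.3 in HPC. Zbtb46 (27.7 ± 6.17 against 2.89 ± 1.23 CPM) and Clec9a were higher. Itgax (0.258 ± 0.298 against 4.75 ± 1.42 CPM), Clec10a and Ccr7 were lower. Of 9 B cell markers 7 were tested, with 3 higher in HSC (4 by DESeq2, which added Ms4a1). None was lower (0 by edgeR, at an unadjusted p under 0.05 and by DESeq2). They stood at summed levels of 64.7 to 86.7 CPM and 54.3 to 65.2 CPM. Cd79b alone was at 53.0 ± 5.64 and 54.1 ± 4.11 CPM, without a call. Cd79a (8.20 ± 1.53 against 2.34 ± 0.520 CPM) and Cr2 (2.40 ± 0.0871 against 0.798 ± 0.448 CPM) went the same way as H2-Aa and Cd74, and their part in the result was not tested.

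Of 8 macrophage markers 7 were tested, and 1, Csf1r, was lower (4.02 ± 2.89 against 25.4 ± 7.41 CPM). None was higher (0 by edgeR, at an unadjusted p under 0.05 and by DESeq2). Their sum was 18.5 to 23.04 CPM in HSC and 35.7 to 50.5 in HPC, and the defining C1q genes had no call and were above 0 in both fractions. Neutrophil and monocyte markers summed to 174 to 249 and 170 to 344 CPM with Ly6g at 0 reads. Of the 4 tested, edgeR called 0, and 1 had an unadjusted p under 0.05. DESeq2 called 1, Lyz2, as lower (191 ± 32.9 against 262 ± 72.5 CPM). T and NK cell markers, of which 4 of 6 were higher and 0 lower (by edgeR, at an unadjusted p under 0.05 and by DESeq2), summed to 39.6 to 56.5 and 15.4 to 22.5 CPM. Over all genes tested, edgeR called 19.6% higher and 17.6% lower. Cd3e was at 13.4 ± 2.05 and 3.82 ± 0.689 CPM. Whether such cells contribute to the class II values was not tested.

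Among 10254 named genes of at least 5 CPM, those whose pattern over the 8 libraries was nearest to H2-Aa were F11r, Fam213a and St3gal6. Likeness was the root mean square difference of log2 CPM centred on each gene's mean, and it was 0.09, 0.10 and 0.11. F11r, a junctional adhesion molecule, was at 96.4 to 117 CPM in HSC and 26.3 to 36.5 CPM in HPC. Among the nearest to H2-Ob were Adgrg3 (0.27) and Fcrl1 (0.31). Adgrg3, an adhesion G protein-coupled receptor, was at 15.5 to 21.8 CPM in HSC and 313 to 357 CPM in HPC. Any gene with a like difference between the fractions scores as near, and nothing is read from likeness about function.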

How the data were processed

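The deposited files give whole-number counts of exon, gene, exon-exon and intron reads for each row, total and unique, per the file headers. They also give TPM, which the authors scaled to 1 sum in every library. The genome build is mm10, per the submitters' processing notes. RNA was taken up in ISOGEN and amplified with a SMARTer Pico kit over 18 PCR cycles before Nextera XT, per the labels' protocols. Aligner, counter and strand setting: not given in the sources used here. Suffixes that mark copies of a name were removed, and the 48737 rows were summed to 46113 NCBI gene IDs. The test of total exon reads was edgeR's (version 4.0.16, R 4.3.3), with filterByExpr, TMM, the quasi-likelihood F test without covariate, and Benjamini-Hochberg adjustment over all genes tested at a threshold of 0.05. Each SE is the log2 change over the root of its F. CPM are mean ± SD over 4 libraries. TPM were summed over rows and used to describe levels and ratios of genes, within and between fractions. No test was run on TPM.

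The members, lists and tests were chosen with earlier results of these data known. Besides the members, the rule for named genes took from every list up to 2 called genes per direction, by adjusted p, with a mean of 1 CPM or more. It added the most abundant marker of each cell type, Cd34, and the 3 genes nearest to H2-Aa and to H2-Ob. Some genes taken by this rule were left out of the text. Other list genes were chosen with their values in view. In a simulation of this comparison with 12624 genes tested, 41 of 100 genes with a 1.5-fold change and 69 of 100 with a 2-fold change were found. Of its 116 calls, 6 were false. The simulation changed 200 genes only, against 4733 called in the data. Adjusted p values depend on how many genes change, so these rates do not carry over directly. No libraries of a group looked like copies (mean chi-square per gene 11.5 to 38.1). Alternatives were RLE and upper quartile scaling, other count filters, DESeq2 1.42.0, voom of limma 3.58.1 with quality weights, the replicate number as a block, leaving out each library, unique exon reads, gene reads, main-assembly rows and a threshold of 0.01. Exon-exon reads, scaffold rows, the split by junction share and leaving out H2-Ob were added after seeing the data.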

Additional observations from a re-analysis of the deposited data

Results flagged for a closer look

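In each fraction, each member's 4 libraries were checked for 1 library far from the rest by Dixon's ratio, 20 groups in all, and chance flags about 1 in 20. H2-Ab1 stood apart in HPC replicate 2, at 70.5 CPM against 53.1 to 55.8 CPM in the other HPC libraries. H2-Eb1 stood apart in HPC replicate 1, at 7.29 CPM against 9.89 to 10.2 CPM in the others.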

How the results depend on the processing

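Of the 10 members, 8 were called. That count was 8 or 9 under each scaling, filter, tool, threshold and kind of read tried except uniquely placed reads, where only Cd74 and Ciita could be tested and 2 were called. No member changed direction, and H2-Ab1 was the only one whose call changed, as given above. Leaving out 1 library gave 8 to 9 called members and 4184 to 4587 called genes of 4733. The difference of 2.08 in the log2 ratio of surface chains to chaperones was 2.04 to 2.11 without 1 library, 2.61 with means of log2 CPM, 1.84 per kilobase of exon and 1.64 without H2-Ob. Within the sides of the split by junction share, chosen after seeing the data, it was 2.01 and 2.14. No such ratio exists on uniquely placed reads, since the surface chains have none. Deviations from the group mean correlated at -0.01, -0.14, 0.14 and 0.22 between same-numbered libraries, and at -0.286 to 0.12 between libraries of different numbers. Not every library correlated best with its own number. The labels do not say whether a shared number marks shared mice or a shared day, and such weak correlations cannot decide it. With the replicate block, 5036 genes, 8 members and 53 list genes were called, beside 53 of the list genes without it. Depth limits Ciita and H2-DMb2 most.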

Other observations

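On the chromosome 17 row, H2-DMa had 248 to 393 more exon reads per HSC library than on the scaffold row, and 211 to 396 more per HPC library. The chromosome 17 model lists 9 exons, and the scaffold model 6. H2-Ob had the lowest junction share of the chains on chromosome 17, at 18.9% to 40.0% of its exon reads.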
